A study of Mus musculus with 4 samples.

Results

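The genes described here are those of the mouse major histocompatibility complex (MHC) and of antigen presentation: every gene on the array whose symbol starts with H2- or is 1 of 14 named partners and regulators. They were chosen by symbol, without use of their values, from probes whose annotation gives a single gene, and the brightest probe by its 4-array mean stood for each gene. This gave 47 members of the 22180 genes with a probe of their own: 22 class I heavy chain genes, 10 genes that act with class I (class I partner genes), 10 class II genes, 3 transcriptional regulators and 2 other genes with an H2- symbol. Of the 14 named symbols 13 had a probe of their own. The exception was Cd74, whose probe is annotated to the microRNA gene Mir5107 as well. H2-D1, one of the classical class I genes, was likewise measured only through a probe annotated to H2-Q2 and H2-D1.

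RNA came from 4 groups of regulatory T cells, sorted on day 7 after mice were given NP-OVA, a hapten-coupled protein, in CFA (complete Freund's adjuvant), and each group was 1 Affymetrix Mouse Gene 2.0 ST array. TFR cells, the follicular regulatory T cells, were PD1+CXCR5+YFP+, and non-TFR cells were CXCR5-YFP+. Control mice carried FoxP3YFP-Cre, which joins a yellow fluorescent reporter and Cre to the Foxp3 gene. Knockout mice carried FoxP3YFP-Cre together with Prdm1fl/fl, floxed alleles of the gene for the repressor Blimp-1, so Cre and its driver are shared by all 4 groups. The labels do not give the mouse strain, the MHC haplotype, the animals' age or the number of animals behind an array.

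MHC class I molecules are a heavy chain bound to beta-2-microglobulin. They show peptides from inside the cell, which the proteasome cuts, the Tap1 and Tap2 transporter brings into the endoplasmic reticulum and a loading complex fits into the groove. Class II molecules are made by B cells, dendritic cells and macrophages, and show peptides from the endosome after the invariant chain, Cd74, has been removed with the help of H2-M, whose action H2-O moderates. Nlrc5 is the transactivator of class I and Ciita that of class II, and both act through the regulatory factor X proteins, among them Rfx5. Mouse T cells carry abundant class I and are generally described as making little class II. Blimp-1 is known to repress Ciita when B cells become plasma cells.

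The promoters below are printed because class II genes share short sequence elements through which Rfx5, NF-Y and Ciita act, and because several of these genes differed together among the arrays. Each run is the 150 bases before the gene's start in RefSeq (build GRCm38.p6), 5′ to 3′ on the gene's own strand. Capitals mark 3 motifs searched on both strands: TGATTGG, the core of the Y box bound by NF-Y; ATGATGC, letters of the X2 box; and TTTCACTTC, letters of the interferon response element of class I genes. The first 5 are class II genes, and H2-K1 is shown as a class I gene. Of the class II genes shown, H2-Aa and H2-Ob had their lowest level in TFR cells, unlike H2-DMb2, H2-Eb1 and H2-Oa. None of the marked motifs overlapped another.
H2-DMb2 (chr17:34145099-34145248, plus strand): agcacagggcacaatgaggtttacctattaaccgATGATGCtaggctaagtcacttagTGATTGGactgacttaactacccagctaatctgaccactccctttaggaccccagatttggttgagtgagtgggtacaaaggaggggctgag
H2-Eb1 (chr17:34305717-34305866, plus strand): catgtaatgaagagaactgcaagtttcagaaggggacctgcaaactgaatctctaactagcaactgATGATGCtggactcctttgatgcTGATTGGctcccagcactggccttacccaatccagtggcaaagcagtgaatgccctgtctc
H2-Oa (chr17:34092229-34092378, plus strand): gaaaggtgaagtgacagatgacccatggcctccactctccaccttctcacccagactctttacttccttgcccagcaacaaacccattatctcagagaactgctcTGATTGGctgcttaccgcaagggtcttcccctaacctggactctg
H2-Aa (chr17:34287824-34287973, minus strand): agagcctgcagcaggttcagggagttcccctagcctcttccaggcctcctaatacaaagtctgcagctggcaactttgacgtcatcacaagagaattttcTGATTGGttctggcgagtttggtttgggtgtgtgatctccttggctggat
H2-Ob (chr17:34238755-34238904, plus strand): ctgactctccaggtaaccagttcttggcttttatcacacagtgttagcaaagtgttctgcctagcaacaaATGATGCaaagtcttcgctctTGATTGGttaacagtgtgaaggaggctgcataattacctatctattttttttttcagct
H2-K1 (chr17:34000348-34000497, minus strand): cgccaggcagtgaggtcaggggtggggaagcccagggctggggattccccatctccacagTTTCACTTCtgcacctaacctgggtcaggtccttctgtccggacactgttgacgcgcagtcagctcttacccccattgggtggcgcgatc

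The Y box core began 92 bases before the start of H2-DMb2, 61 before H2-Eb1, 45 before H2-Oa, 50 before H2-Aa and 59 before H2-Ob. In the longer windows of the RefSeq table, which extend on both sides, TGATTGG was present in 7 of 8 class II members with a promoter there, in 11 of 16 class I heavy chain members and in 7.82% of all 32851 promoters. ATGATGC was present in 4 of the 8 class II members and in 2.46% of all promoters. TTTCACTTC was present in 4 of the 16 class I heavy chain members, in none of the 8 class II members and in 0.505% of all promoters. Among class II members H2-DMa held none of these motifs, and H2-Ab1 had no promoter to search. The matches describe letters and not binding, and the motifs were picked with the promoters in view.

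The 4 arrays were compared as pairs, TFR with non-TFR cells for either genotype, and the knockout with the control for either population. Each population pair shares 1 array with each genotype pair, so a single high or low array enters a comparison of both kinds. Levels are log2 signals after quantile normalization, and a difference is the log2 level of one array minus that of another, without a test, since no group had a replicate. A gene was taken as above the expression limit where its mean over the arrays exceeded the median of all genes, 5.91. Folds are given only where both levels lay above it, and 30 of the 47 members passed. All 10 class I partner genes and all 3 regulators passed, as did 10 of 22 class I heavy chain genes and 6 of 10 class II genes. Among defining markers Cd3e lay between 12.93 and 13.04, Cd3d between 12.74 and 12.92 and Foxp3 between 11.87 and 12.45. Cxcr5, a gene of the sort, was at 9.52 and 10.39 in control and knockout TFR cells and 8.06 and 8.90 in non-TFR cells. Pdcd1, the gene for PD1, was at 9.86 and 10.68 in control and knockout TFR cells and 7.44 and 8.96 in non-TFR cells. The non-TFR sort had no PD1 gate, and Pdcd1 was 1.52 higher in knockout than in control non-TFR cells. The targeted gene, Prdm1, was at 8.21 and 7.32 in TFR cells of control and knockout mice and at 7.80 and 7.59 in their non-TFR cells. Its signal need not come from the deleted part, so it is a weak check of the genotype labels.

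Among members above the expression limit, class II genes separated the arrays more than class I genes did, and the array that stood low was most often that of control non-TFR cells. The span between the highest and lowest array had a median of 1.03 over the 6 class II members above the expression limit, 0.47 over the 10 class I heavy chain genes, 0.21 over the 10 partner genes and 0.41 over all 11090 genes above the limit. Below the limit the order was the reverse, with 0.41 over 4 class II members and 0.73 over 12 class I heavy chain genes. Control non-TFR cells had the lowest level for 4 of the 6 class II members, and for 34.5% of all genes above the limit. For H2-Eb1, among these members, the gap to knockout non-TFR cells was 0.01, and the deposited values of the non-TFR arrays were equal. The plot of class II levels by array shows this for each gene.

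**Figure D1:**
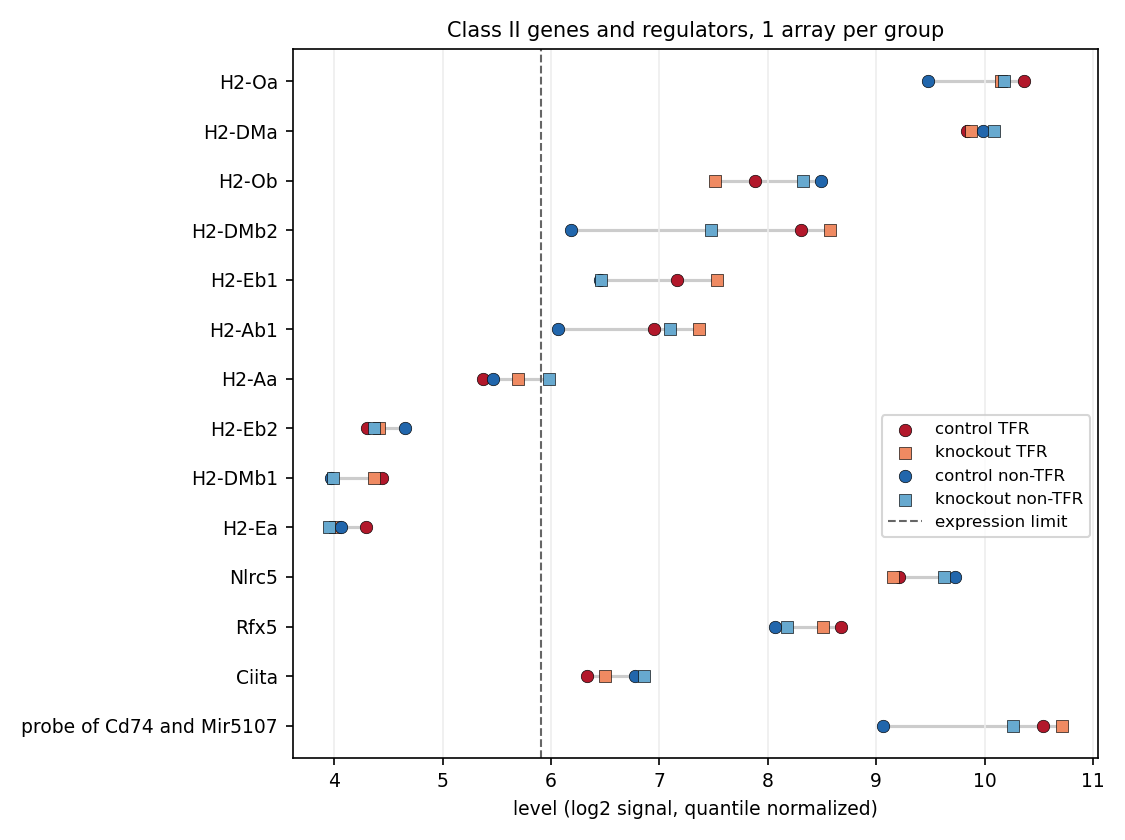
Level (log2 signal) of the 10 class II members, the 3 regulators and the probe shared by Cd74 and Mir5107 on each of the 4 arrays, with 1 point per array and a dashed line at the expression limit of 5.91. For H2-DMb2, H2-Ab1, H2-Oa and the shared probe the control non-TFR array lies below the other 3, and 4 class II members have a mean below the limit.

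H2-DMb2 encodes a beta chain of H2-M, the peptide editor that removes the invariant chain fragment from class II. It was at 8.31 and 8.57 in TFR cells of control and knockout mice and at 6.18 and 7.48 in their non-TFR cells. Both TFR arrays were high, control non-TFR cells were low, and knockout non-TFR cells lay between. H2-DMb2 was 2.12 higher in TFR cells than non-TFR cells of control mice (4.36-fold) and 1.10 higher in knockout mice (2.14-fold). Of genes above the limit 0.658% had a difference at least as high in the control comparison. It was 1.30 higher in knockout than in control non-TFR cells (2.46-fold), a size reached by 0.216% of genes, and 0.27 higher in the knockout within TFR cells.

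H2-Ab1 encodes the beta chain of I-A, a classical class II molecule. It was at 6.95 and 7.36 in TFR cells of control and knockout mice and at 6.06 and 7.10 in their non-TFR cells, so that control non-TFR cells were low and just above the limit. Its difference between knockout and control was 1.04 in non-TFR cells (2.05-fold) and 0.41 in TFR cells. Between the populations it was 0.89 higher in TFR cells of control mice and 0.26 higher in those of knockout mice. The partner of this chain in I-A is made by H2-Aa, which was dim, at 5.37 and 5.70 in TFR cells of control and knockout mice and at 5.46 and 5.98 in their non-TFR cells. H2-Aa was 0.52 and 0.32 higher in the knockout in non-TFR and TFR cells, and its mean lay below the limit.

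H2-Eb1 encodes the beta chain of I-E. It followed the population more than the genotype, at 7.16 and 7.53 in TFR cells of control and knockout mice and at 6.46 and 6.47 in their non-TFR cells. It was 0.70 higher in TFR cells of control mice (1.63-fold) and 1.07 higher in those of knockout mice (2.10-fold), and the non-TFR arrays differed by 0.01. The matching alpha chain gene, H2-Ea, is a transcribed pseudogene in the RefSeq annotation of the C57BL/6J genome and had a mean of 4.08.

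The chains of H2-O did not move as a pair. H2-Oa, the alpha chain gene, was at 10.37 and 10.15 in TFR cells of control and knockout mice and at 9.48 and 10.18 in their non-TFR cells. The other arrays lay close together and control non-TFR cells were low, which gave a difference of 0.89 between the control populations (1.85-fold) and of 0.70 between the non-TFR genotypes (1.63-fold). H2-Ob, the beta chain gene, was at 7.88 and 7.52 in TFR cells of control and knockout mice and at 8.49 and 8.33 in their non-TFR cells. It was lower in TFR cells, by -0.61 in control mice (1.53-fold) and -0.81 in knockout mice (1.75-fold). H2-DMa, the alpha chain gene of H2-M, spanned 0.25 over the arrays, from 9.83 in control TFR to 10.09 in knockout non-TFR cells. H2-DMb1, which lies beside H2-DMb2 on chromosome 17 and also encodes a beta chain of H2-M, was dim, between 3.97 and 4.44.

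The invariant chain was measured only through the probe annotated to Cd74 and Mir5107, and its signal is not assigned to either gene here. That probe was at 10.54 and 10.71 in TFR cells of control and knockout mice and at 9.06 and 10.26 in their non-TFR cells. Control non-TFR cells were again the low array: the difference was 1.48 between the control populations (2.79-fold), 1.20 between the non-TFR genotypes (2.30-fold), 0.45 between the knockout populations and 0.17 between the TFR genotypes.

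Counted over members above the limit, 1 was at least 2-fold higher in TFR cells than non-TFR cells of control mice, H2-DMb2, where 4.13% of genes above the limit were, and 0 were 2-fold lower, where 1.36% were. In knockout mice 2 were higher, H2-DMb2 and H2-Eb1, where 3.03% of genes were, and 0 were lower, where 1.37% were. In the knockout against the control, 0 were 2-fold apart within TFR cells, where 0.442% of genes were higher and 0.234% lower. Within non-TFR cells 2 were higher, H2-DMb2 and H2-Ab1, where 0.775% of genes were, and 0 were lower, where 0.126% were. Each of these calls was a class II gene, and each count is small against 30 members. Over all 10 class II members, dim ones included, the median difference was 0.35 for the control populations, 0.05 for the knockout populations, 0.07 for the TFR genotypes and 0.06 for the non-TFR genotypes, beside 0.01, 0.00, 0.01 and 0.03 over all genes. Above the limit, the higher level in TFR cells of control mice was that of H2-DMb2, H2-Ab1, H2-Eb1 and H2-Oa and not of class II as a whole. These genes did not share 1 pattern in the other comparisons. H2-Oa differed by -0.03 between the knockout populations, and H2-Eb1 by 0.01 between the non-TFR genotypes.

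**Figure D2:**
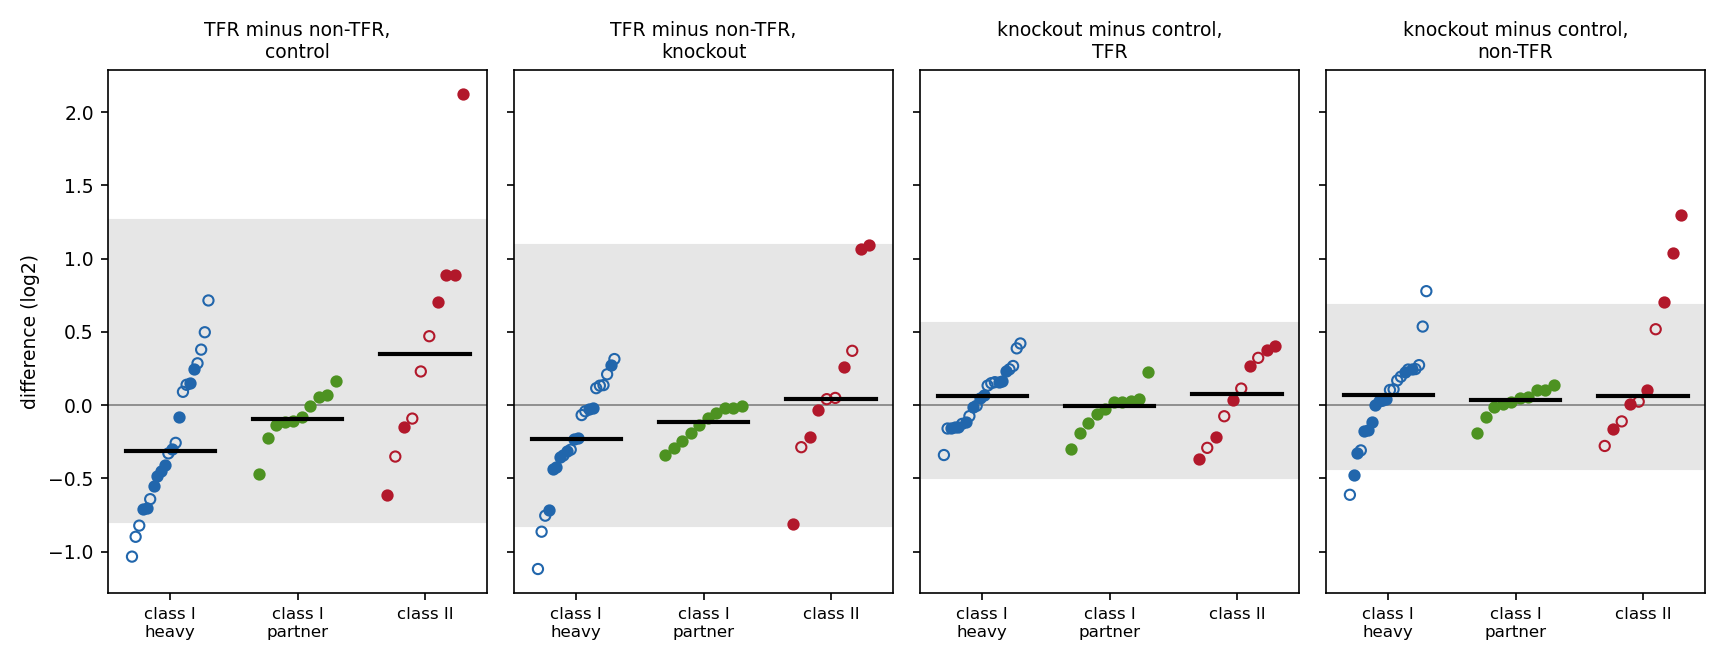
Log2 difference of each class I heavy chain, class I partner and class II member in the 4 comparisons; filled points lie above the expression limit, open points below it, black bars are medians over all members of a class, and the grey band is the middle 95% of genes above the limit. H2-DMb2 lies at 2.12 in the first panel and, with H2-Ab1 at 1.04 and H2-Oa at 0.70, above the band in the last.

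Genotype and population can be set side by side per gene as the difference of the genotype differences, TFR minus non-TFR. It was -1.03 for H2-DMb2, -0.92 for H2-Oa, -0.63 for H2-Ab1, -0.20 for H2-Ob, -0.07 for H2-DMa and 0.37 for H2-Eb1. For 5 of the 6 class II members the knockout minus control difference was thus higher in non-TFR than in TFR cells. For H2-Oa it was -0.22 in TFR cells and 0.70 in non-TFR cells, opposite in direction. The difference of the genotype differences was below 0 for 52.4% of all genes above the limit. Its median over all members was -0.19 for class II, -0.01 for class I heavy chains and -0.02 for class I partners, beside -0.02 over all genes. No test of these differences was run.

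Of the regulators Ciita and Nlrc5 were lower in TFR cells, and Rfx5 was higher. Ciita was at 6.33 and 6.50 in TFR cells of control and knockout mice and at 6.78 and 6.86 in their non-TFR cells. It was lower in TFR cells, by -0.45 in control and -0.36 in knockout mice, and differed between the genotypes by 0.17 in TFR and 0.08 in non-TFR cells. Ciita was thus higher in control non-TFR cells, where H2-DMb2, H2-Ab1 and H2-Oa were lowest, than in either TFR array. Nlrc5, which drives class I genes, was at 9.21 and 9.15 in TFR cells of control and knockout mice and at 9.72 and 9.63 in their non-TFR cells, and differed by -0.51 and -0.47 between the populations. Rfx5 was at 8.67 and 8.51 in TFR cells of control and knockout mice and at 8.07 and 8.18 in their non-TFR cells. It was lowest in control non-TFR cells, as were H2-DMb2, H2-Ab1 and H2-Oa, with differences of 0.60 (1.52-fold) and 0.33 between the populations. The probe shared by Rfx5 and B230398E01Rik was also higher in TFR cells, by 0.31 and 0.51. That probe was instead lowest in knockout non-TFR cells, at 6.46 beside 6.58 in control non-TFR cells.

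Other proteins than Rfx5 also bind the X and Y boxes. All 6 listed genes for them (Rfxap, Rfxank, Nfya, Nfyb, Nfyc and Creb1) were measured, and none was 2-fold apart in any comparison. Their differences lay between -0.38, that of Rfxap in the knockout populations, and 0.30, that of Creb1 in the control populations.

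Class I heavy chain genes had median differences below 0 between the populations. Over all 22 they were -0.31 in control and -0.23 in knockout mice. Between the genotypes the medians were 0.06 in TFR and 0.07 in non-TFR cells. Without quantile normalization the control population median was -0.21, and the median of all genes moved from 0.01 to 0.11 in that comparison and from 0.00 to 0.12 in the knockout one. With values below the 20th percentile raised to it the medians were 0.00 and -0.02, since dim members then have no difference.

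**Figure D3:**
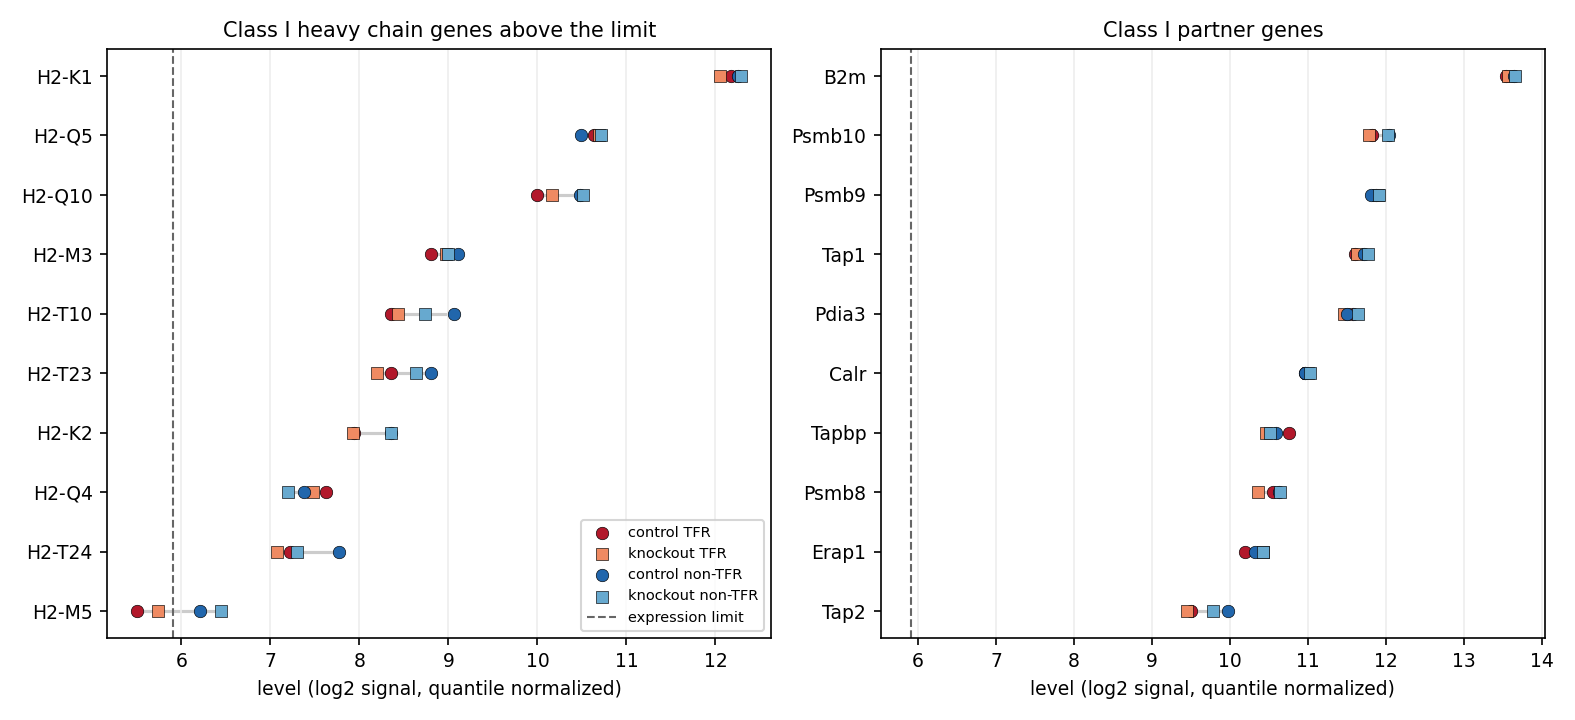
Level (log2 signal) on each of the 4 arrays of the 10 class I heavy chain genes above the expression limit (left) and of the 10 class I partner genes (right), 1 point per array, with a dashed line at the limit of 5.91. The points of each partner gene lie within 0.53 of each other. All heavy chain genes shown except H2-Q4 and H2-Q5 have both TFR arrays to the left of both non-TFR arrays, H2-Q10 by its brighter probe only.

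H2-K1, the classical heavy chain with a probe of its own, differed little. It was at 12.17 and 12.06 in TFR cells of control and knockout mice and at 12.25 and 12.29 in their non-TFR cells, a span of 0.23. The light chain gene B2m was at 13.53, 13.56, 13.64 and 13.65 in the same order, a span of 0.12, close to the top of the scale at 13.8. Class I at the RNA level was thus high in every array, and no difference of either gene reached 1.2-fold.

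Among nonclassical heavy chains H2-T23 encodes Qa-1, the ligand of the inhibitory receptor CD94/NKG2A. It was at 8.36 and 8.20 in TFR cells of control and knockout mice and at 8.80 and 8.64 in their non-TFR cells, lower in TFR cells by -0.45 and -0.43 (1.36-fold and 1.35-fold). H2-T10, a transcribed pseudogene in RefSeq from a family known as ligands of gamma delta T cells, was at 8.36 and 8.43 in TFR cells of control and knockout mice and at 9.06 and 8.74 in their non-TFR cells. Both TFR arrays lay below both non-TFR arrays, by -0.71 in control mice (1.63-fold) and -0.31 in knockout mice. The probe shared by H2-T22 and H2-T9, of the same family, was at 11.05 and 11.09 in TFR cells of control and knockout mice and at 11.56 and 11.41 in their non-TFR cells. H2-T24 was at 7.22 and 7.07 in TFR cells of control and knockout mice and at 7.77 and 7.30 in their non-TFR cells. It was lower in the knockout in non-TFR cells by -0.48, the lowest genotype difference of a member above the limit. H2-M3, which presents formylated bacterial peptides, lay between 8.81 and 9.11.

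The H2-Q genes showed how far probes of this family can be read. H2-Q10, a secreted class I molecule known from liver, had a brighter probe that was -0.48 lower in control TFR than in control non-TFR cells and a dimmer one that was 0.52 higher. The probes of H2-Q4 differed by 0.25 and -0.25 in the same comparison, and those of H2-Q5, a transcribed pseudogene, by 0.15 and 0.72. The probes of these genes therefore disagreed in direction or size, and no direction is given for H2-Q4 or H2-Q10. Those of H2-Q5 also differed in sign between the knockout populations, at -0.03 and 0.67, and in both genotype comparisons. The brighter probe of each gene enters the heavy chain medians. Sequences of the H2-Q, H2-K and H2-D genes are closely related, so signal of one can reach the probe of another. In all, 10 probes were shared between a member and another gene, 6 of them between members only. The probe annotated to H2-Q7, H2-Q9 and H2-Q8 that was brighter lay between 13.29 and 13.40, and that of H2-Q6 and H2-Q8 between 12.29 and 12.57. The probe of H2-Q2 and H2-D1 was at 7.45 and 7.80 in TFR cells of control and knockout mice and at 7.41 and 7.28 in their non-TFR cells. How much of any of these signals comes from a related gene was not tested. Of the 47 members 5 are transcribed pseudogenes in RefSeq (H2-K2, H2-Q5, H2-T10, H2-Bl and H2-Ea), and H2-K2, H2-Q5 and H2-T10 had a mean above the limit.

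H2-K2 was at 7.94 and 7.93 in TFR cells of control and knockout mice and at 8.35 and 8.36 in their non-TFR cells. It separated the populations alike in both genotypes, by -0.41 and -0.42. H2-M5 crossed the expression limit, at 5.51 and 5.74 in control and knockout TFR cells and 6.21 and 6.45 in control and knockout non-TFR cells, so no fold is given for its population differences of -0.70 and -0.71.

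Of the 22 heavy chain genes 12 had a mean below the limit, with levels from 3.35 to 6.22 over the arrays. They include 10 H2-M genes, among them the H2-M10 genes, best known from the vomeronasal organ. The largest differences among them were -1.03 for H2-Q1 and -0.90 for H2-M9 in the control populations, and -1.12 for H2-M10.4, -0.86 for H2-M10.5 and -0.75 for H2-M1 in the knockout populations. Between genotypes they were 0.42 for H2-Q1, 0.39 for H2-M10.1 and -0.34 for H2-M10.5 in TFR cells, and 0.78 for H2-Bl, -0.61 for H2-M9 and 0.54 for H2-M10.1 in non-TFR cells. None of these levels was shown to be above background. The 2 other genes with an H2- symbol were H2-Ke6, a steroid dehydrogenase gene of the region, which was between 10.09 and 10.56 and lower in TFR cells by -0.46 and -0.33, and H2-Pb, between 3.88 and 4.87 and lower in TFR cells of control mice by -0.99.

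Class I partner genes hardly differed. Over the 10 of them the median difference was -0.09 between the control populations, -0.11 between the knockout populations, -0.003 between the TFR genotypes and 0.03 between the non-TFR genotypes. The population medians were 0.01 and -0.08 without quantile normalization, so their direction in control mice was not stable. Their differences lay between -0.47 and 0.23.

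The immunoproteasome subunit genes, which replace the constitutive catalytic subunits, spanned 0.10 (Psmb9), 0.25 (Psmb10) and 0.29 (Psmb8) over the arrays. Psmb10 was at 11.81 and 11.78 in TFR cells of control and knockout mice and at 12.04 and 12.03 in their non-TFR cells, lower in TFR cells by -0.23 and -0.24. Psmb8 was lowest in knockout TFR cells at 10.35, beside 10.54 in control TFR cells and 10.62 and 10.64 in control and knockout non-TFR cells. Psmb9 lay between 11.81 and 11.91. The constitutive proteasome and activator list of 10 genes had medians of -0.02, 0.16, 0.10 and -0.02 in the 4 comparisons. Among them Psmd1 was 0.56 higher in TFR cells of knockout mice, and the interferon-inducible activator subunits Psme1 and Psme2 were -0.41 and -0.40 lower there.

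The transporter genes differed from each other. Tap2 was at 9.50 and 9.44 in TFR cells of control and knockout mice and at 9.98 and 9.78 in their non-TFR cells, which made it the partner gene with the widest span, 0.53, and lower in TFR cells by -0.47 (1.39-fold) and -0.34 (1.27-fold). Tap1 spanned 0.16, from 11.60 to 11.76. Erap1, the aminopeptidase that trims peptides in the endoplasmic reticulum, was 0.23 higher in knockout than in control TFR cells, at 10.42 against 10.19. In the loading complex Calr spanned 0.06 and Pdia3 0.19. Tapbp, which encodes tapasin, was at 10.76 and 10.45 in TFR cells of control and knockout mice and at 10.59 and 10.51 in their non-TFR cells. Its difference of -0.30 between the TFR genotypes (1.23-fold) was the largest of a partner gene in either genotype comparison, and the dimmer probe of the same gene differed by -0.04. The 6 other chaperones listed lay within -0.40 and 0.47 in every comparison, the limits being Hspa5 in the control populations and Ganab in the knockout populations.

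Interferon-gamma is a main inducer of class I, class II and immunoproteasome genes, and most of its receptor, signalling and target genes that were listed had lower levels in TFR cells. Of 7 measured receptor and signalling genes, all above the limit, 5 were lower in TFR cells of control mice, where 47.5% of genes above the limit were, and 5 in those of knockout mice, where 48.4% were, with medians of -0.40 and -0.80, beside 0.01 and 0.00 over all genes. Ifngr1, the ligand-binding receptor chain, was at 10.03 and 9.26 in TFR cells of control and knockout mice and at 10.82 and 10.62 in their non-TFR cells. It was lower in TFR cells by -0.79 and -1.35 and lower in the knockout within TFR cells by -0.77. Ifngr2, the second chain, differed by -0.80 between the populations in both genotypes, and by -0.41 and -0.42 between the genotypes in TFR and non-TFR cells. The transcription factor Irf1 is known to bind interferon response elements, and binding to the letters marked in the H2-K1 promoter was not tested. Irf1 was lowest in knockout TFR cells, at 8.36, against 8.82 in control TFR cells and 9.22 and 9.18 in control and knockout non-TFR cells. Socs1, an inhibitor of this pathway, was lower in TFR cells by -0.71 and -0.80, and Jak2 was 0.35 and 0.61 higher.

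**Figure D4:**
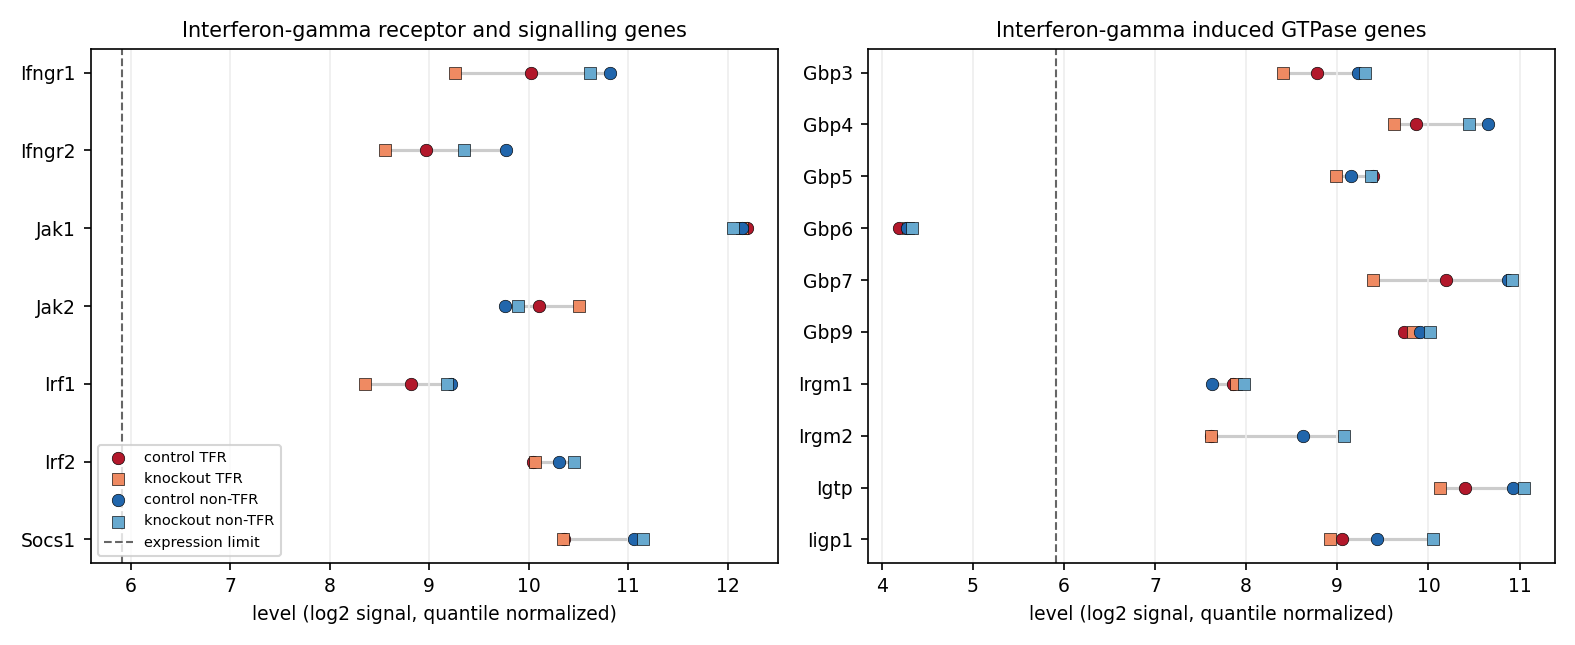
Level (log2 signal) on each of the 4 arrays of 7 interferon-gamma receptor and signalling genes (left) and 10 interferon-gamma induced GTPase genes (right), 1 point per array, with a dashed line at the expression limit of 5.91. For Ifngr1, Ifngr2, Irf1, Gbp3, Gbp4, Gbp7 and Igtp knockout TFR cells are the lowest array and both non-TFR arrays lie above both TFR arrays.

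The interferon-gamma induced GTPases, which act against intracellular pathogens, had medians of -0.42 and -0.86 in the population comparisons, over 10 genes. Of the 9 above the limit 7 were lower in control and 9 in knockout mice, beside the same 47.5% and 48.4% of genes. Gbp5 and Irgm1 were the exceptions in control mice, both 0.24 higher in TFR cells. Irgm2 was at 7.62 and 7.61 in TFR cells of control and knockout mice and at 8.62 and 9.07 in their non-TFR cells. It was lower in TFR cells by -1.01 and -1.46, the first of which was -0.90 without quantile normalization, and Gbp7 (-1.52) and Iigp1 (-1.14) were at least 2-fold lower in knockout mice. Between the genotypes the list median was -0.18 in TFR cells, led by Gbp7 at -0.80, and 0.11 in non-TFR cells, led by Iigp1 at 0.61. Near-identical GTPase genes can share signal.

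Genes of endosomal processing, where class II meets its peptides, did not move together. The thiol reductase gene Ifi30 was at 9.44 and 9.46 in TFR cells of control and knockout mice and at 8.50 and 8.91 in their non-TFR cells. It was 0.94 higher in TFR cells of control mice and 0.55 higher in those of knockout mice, with control non-TFR cells lowest as for H2-DMb2. Cathepsin B (Ctsb) was 0.52 and 0.61 higher in TFR cells, and cathepsin S (Ctss), which cuts the invariant chain, was lower by -0.30 and -0.52. Of the 9 genes 4 were higher in TFR cells of control mice, where 51.7% of all genes were. In those of knockout mice 6 were higher, where 11086 of all 22180 genes were. The medians were -0.13 and 0.55, and none was 2-fold apart, though Ifi30 reached 1.06 in control mice without quantile normalization. Ctsl (0.76) and Lgmn (0.76) were higher in TFR cells of knockout mice and lower in those of control mice.

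Among class II turnover and costimulatory genes Cd86 was at 9.75 and 8.88 in TFR cells of control and knockout mice and at 9.50 and 9.86 in their non-TFR cells, so knockout TFR cells were low. Cd80 was highest there, at 8.40 against 7.64 in control TFR cells and 7.23 and 7.72 in control and knockout non-TFR cells. Marchf1, a ligase that removes class II from the surface, and Cd40 had means below the limit. Of the class I-like genes outside the H2- symbols, Mr1, which presents vitamin B metabolites, was 0.43 and 0.41 higher in the knockout in TFR and non-TFR cells, and Cd1d1 spanned 7.48 to 7.81.

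Since class II is typical of B cells and myeloid cells, the levels of their markers stand beside the class II results. In sorted bulk RNA more of another cell type and more RNA per cell cannot be told apart. Of 16 B cell markers 14 were measured, 11 of them with means below the limit. In TFR cells of control mice 9 of the 14 were higher than in their non-TFR cells, where 51.7% of all genes were, with a median difference of 0.15. Control non-TFR cells were the lowest array for Cd22, Cd79b, Pax5, Spib and Cr2, beside 34.5% of all genes above the limit. Pax5, Spib and Cr2 lay below the limit, and the share was not computed for such dim genes. They were not the lowest for the other measured markers: Ms4a1, which encodes CD20, Cd79a, Ebf1, Blnk, Bank1, Fcrla, Fcer2a, Vpreb3 and Btk. Cd22 had the order of H2-DMb2, at 8.27 and 9.27 in TFR cells of control and knockout mice and at 5.99 and 7.04 in their non-TFR cells, and Pax5 was at 5.69, 6.10, 5.04 and 5.18 in the same order of groups. The summed linear signal of the 14 markers was 1071 and 1321 in control and knockout TFR cells and 746 and 899 in control and knockout non-TFR cells, and that of the 11 dim ones 342, 346, 312 and 317.

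Of 18 dendritic cell and macrophage markers 16 were measured, 15 of them with means below the limit. In TFR cells of control mice 14 of the 16 were higher, where 51.7% of all genes were, with a median difference of 0.23. Siglech (0.80), Batf3 (0.55) and Zbtb46 (0.49) were among the higher ones, and Csf1r (-0.35) and Flt3 (-0.10) were lower. Control non-TFR cells were the lowest array for Siglech, Batf3, Zbtb46, Xcr1, Cd68, Fcer1g, Clec10a and Sirpa. They were the lowest for 34.5% of all genes above the limit. That share was not computed for genes below it, where all of these markers but Cd68 lie. Itgax, Itgam, Lyz2, Cd14 and Tyrobp were instead lowest in knockout non-TFR cells, and Csf1r, Flt3 and Adgre1 in a TFR array. Cd68 was at 7.97 and 9.17 in TFR cells of control and knockout mice and at 7.47 and 7.59 in their non-TFR cells. The summed signal of the 16 was 792, 1127, 645 and 673 in the same order of groups, and that of the 15 dim ones 541, 549, 467 and 481. Summed signals of both lists were thus lowest in control non-TFR cells, the array with the lowest H2-DMb2, H2-Ab1 and H2-Oa, and their part in the class II differences was not tested. Markers of CD8 T cells and natural killer cells summed to 690, 658, 887 and 833, and those of stromal and endothelial cells to 1236, 1337, 1626 and 1476. Without Cd8b1 and Pecam1, the brightest of each list, the first sums were 264, 233, 203 and 206 and the second 322, 356, 307 and 325 in the same order of groups. The T cell and Treg markers summed to 45280, 43012, 46030 and 46580.

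**Figure D5:**
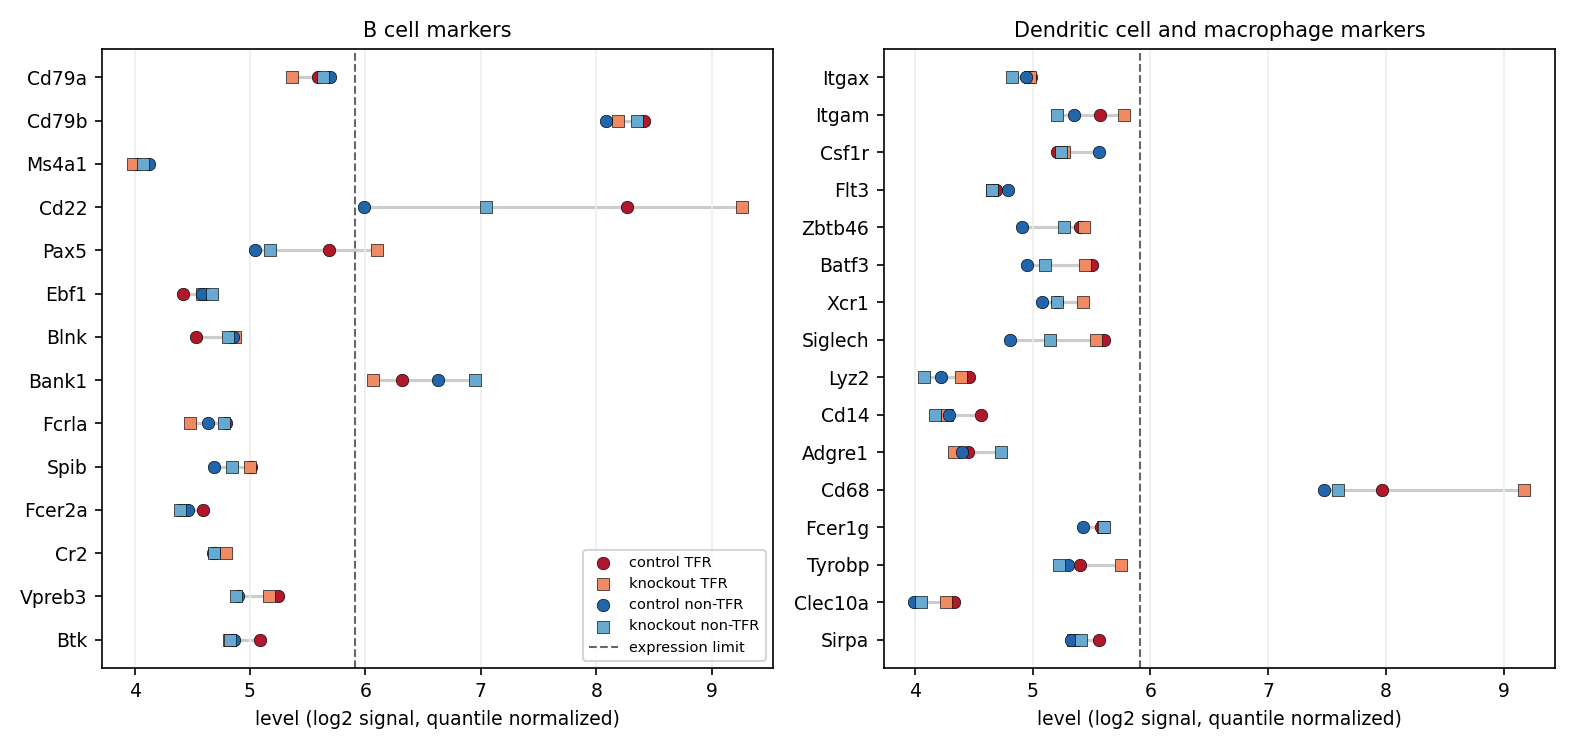
Level (log2 signal) on each of the 4 arrays of 14 B cell markers (left) and 16 dendritic cell and macrophage markers (right), 1 point per array, with a dashed line at the expression limit of 5.91. Most markers lie below the limit on every array, whereas Cd22 and Cd68 lie above it and vary among the arrays.

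Along chromosome 17, in the order of RefSeq, the genes that differed and those that did not were interleaved. H2-Oa, H2-DMa, H2-DMb2, H2-DMb1, Psmb9, Tap1, Psmb8, Tap2, H2-Ob, H2-Ab1, H2-Aa and H2-Eb1 follow each other among the members. In the control populations their differences in that order were 0.89, -0.15, 2.12, 0.47, 0.06, -0.11, -0.08, -0.47, -0.61, 0.89, -0.09 and 0.70. Higher and lower values were mixed over these neighbours, with a run of lower values from Tap1 to H2-Ob. The class II genes that were higher thus did not lie as 1 block of adjacent genes. H2-DMb1 and H2-Aa are among those whose mean was below the limit.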

How the data were processed

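Total RNA of 4 sorted populations, 1 per group and assigned by title, was measured, per the labels, on Mouse Gene 2.0 ST arrays from Affymetrix. The deposited log2 values, 1 per transcript cluster (called a probe) and array, are as the authors made them; the log2 scale was inferred from values between 2.23 and 13.8. The submitters' processing notes name MAS5 without role or version, and for background correction, summarization and genome build the method was not given in the sources used here. No detection calls were used, and precision is limited by having 1 array per group.

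Deposited medians spanned 0.105, so all 41345 probes were quantile normalized with limma 3.58.1 in R 4.3.3. This makes the distributions equal and also removes a real shift common to most genes. GEO's platform annotation gave 23521 probes 1 symbol, 1814 several and 16010 none. Only the first were used for genes, with the probe of highest mean for the 1082 genes with several. Of the members 46 of 47 matched RefSeq (GRCm38.p6) by Entrez identifier. Pairwise log2 differences carry no test. Counting was tested on simulated data.

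Members and lists were chosen with earlier results of these data known. Named are all members above the expression limit, the 3 members below it with the largest difference per comparison, up to 4 genes per other list and comparison, and markers by count and summed signal. Ctss and the markers named singly were chosen after their values were seen. Alternatives were the deposited values, cyclic loess, 75th percentile centring, the mean of a gene's probes, filters and a floor on dim genes, list means and the addition of shared probes.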

Additional observations from a re-analysis of the deposited data

Results flagged for a closer look

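Ctsl, Lgmn and Cd86 differed in opposite directions between groups, each beyond a set minimum size; with 1 array per group this was not tested. The protease gene Ctsl was 0.97 higher in the knockout in TFR cells and -0.51 lower in non-TFR cells, and its population difference was -0.72 in control and 0.76 in knockout mice. Lgmn, the asparaginyl endopeptidase, gave 0.72 and -0.43 between the genotypes, and -0.39 and 0.76 between the populations. Cd86 was -0.86 lower in the knockout in TFR cells and 0.36 higher in non-TFR cells. The population and genotype values of a gene share the same 4 arrays and are not separate evidence. No member above the limit differed in opposite directions beyond that minimum size.

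The probe annotated to Cd74 and Mir5107, which counts in no gene level, was 1.48 higher in TFR cells than non-TFR cells of control mice and 1.20 higher in knockout than in control non-TFR cells, beyond 2-fold in both.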

How the results depend on the processing

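Of the alternative values for class medians, counts and differences of differences 184 stayed within 0.1 on the log2 scale or 1.5 times the count, 22 moved further and 1 reversed; 0.1 is a set tolerance, as there are no replicates. As deposited, medians were -0.21 (class I heavy chain) and 0.013 (partner) in the control populations and 0.19 (class II) in the knockout populations; 2 members were 2-fold higher in the control populations, H2-Oa (1.01) joining, and 0 of all members were 2-fold lower in either genotype. With 75th percentile centring partner medians were -0.22 (knockout populations) and -0.12 (difference of differences), and 2 members were 2-fold lower in the control populations. With the floor, heavy chain medians were 0.00 and -0.025 in control and knockout populations, class II was 0.00 in the control populations, and 0 members were 2-fold lower in the knockout populations. Over members above the expression limit the medians were -0.43 (heavy chain) and 0.80 (class II) in the control populations and -0.055 and 0.40 in the non-TFR genotypes. Over class II members above the 75th percentile the control population median reversed to -0.15, and it was -0.22 both for the knockout populations and for the TFR genotypes, since this filter leaves out H2-DMb2, H2-Ab1 and H2-Eb1. Class II means were 0.15 (knockout populations) and 0.31 (non-TFR genotypes). Of the values of single members 426 stayed within 0.1, 53 moved further and 1, H2-Oa as deposited, passed 2-fold. Adding probes shared with any gene, an alternative chosen after the data were seen, moved no median by 0.1 or more. No paired analysis was possible because each group is 1 array without a replicate number in the labels. No detection calls or replicates show which dim members were above background.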
